A study of Sus scrofa with 5 samples.

Results

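The genes described here are mostly ones that make, break down or read out the second messengers cyclic AMP, cyclic GMP and diacylglycerol. They were taken by symbol from a table of unique molecular identifier (UMI) counts over nuclei of pig dorsal root ganglion, the ganglion that holds the cell bodies of somatic sensory neurons. A row was a member when its symbol was ADCY with a number, PDE with a number, PRKAC or PRKAR, PRKC, PRKG with a number, GUCY, or RAPGEF with a number. The gene for the neuropeptide PACAP, ADCYAP1, and its receptor were not members. The rule found 57 members among 30477 rows: 10 adenylyl cyclases, 4 guanylyl cyclases, 19 phosphodiesterases, 6 subunits of protein kinase A (PKA), 2 genes of protein kinase G (PKG), 8 isoforms of protein kinase C (PKC), 5 RAP exchange factors and 3 genes that share a symbol only. Those 3 are PDE4DIP, a scaffold of the centrosome and Golgi also called myomegalin, PRKCSH, the beta subunit of glucosidase II, and PDE12, an enzyme that trims RNA tails in mitochondria. The 19 phosphodiesterases were counted by symbol and include PDE6D, whose activity as an enzyme is not addressed here. All 57 had at least 1 UMI, together 194302 UMIs or 1.12% of the table, and 53 had at least 50 UMIs. The other 4 were ADCY4 with 10, PDE6B with 2, PDE1B with 35 and PRKCQ with 39 UMIs, and they enter no comparison.

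The animals were 5 male pigs of the Landrace breed, with no treatment named in the labels, and 80 mg of ganglia from thoracic and lumbar levels went into each sample. Nuclei were isolated by protocols that differed in detergent and in how debris was removed, and neuronal nuclei were enriched with an antibody to the neuronal protein NeuN. The libraries were 10x Genomics libraries of transcript 3' ends. The table holds 2189 nuclei in 6 barcode series, called libraries 1 to 6 here, and no label ties a library to a pig or to a protocol, so the table is 1 pooled sample with no test over animals.

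As background, adenylyl cyclases make cyclic AMP when receptors act through G proteins, and the isoforms differ in how calcium and G protein subunits act on them. Cyclic AMP is read by PKA and by the EPAC proteins, which switch on the small GTPase RAP, and phosphodiesterases end the signal. Cyclic GMP, made by soluble or membrane guanylyl cyclases, is read by PKG. The PKC isoforms other than the atypical PRKCI and PRKCZ respond to diacylglycerol, some of them together with calcium. In nociceptors, PKA and PKC are known for sensitising ion channels during inflammation.

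Nuclei were clustered without the members and without a list of pathway genes, and each cluster joined the group of whichever of 8 marker genes stood out most against the rest of its library. The TRPM8 group (cold sensor) held 518 nuclei, IL31RA (itch receptor) 214, GFRA2 (a neurturin receptor of non-peptidergic C-fibre neurons) 217, ADCYAP1 559, KIT 130, NTRK2 (the BDNF receptor TrkB) 175, NTRK3 (the neurotrophin-3 receptor TrkC) 164 and PVALB (parvalbumin) 212. The first 4 are joined below as the C-fibre groups, 1508 nuclei, and the NTRK2, NTRK3 and PVALB groups as the large-fibre groups, 551 nuclei. Of the other listed markers of each type, 3 of 4 were highest in the TRPM8 group, 5 of 6 in the IL31RA group, 4 of 6 in GFRA2, 2 of 4 in ADCYAP1, 1 of 3 in KIT, 0 of 4 in NTRK2, 1 of 3 in NTRK3 and 0 of 3 in PVALB. The names therefore stand for the leading marker and not for a cell type, above all on the large-fibre side.

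Libraries were spread unevenly over the groups, and this bears on every value below. Library 1 gave 313 of the 518 TRPM8 nuclei, 301 of which lie in 1 cluster with a median of 1437 UMIs that took 296 nuclei from that library. Library 3 gave 152 of the 175 NTRK2 nuclei and alone had at least 10 nuclei in all 8 groups, and PVALB nuclei came mainly from libraries 1 (141), 3 (40) and 4 (24). Depth ran from 760816 UMIs in library 2 (13 nuclei) to 4910023 in library 6, and the median share of mitochondrial UMIs from 0.06% in library 6 to 18.5% in library 3. Summed levels of 6 satellite glia genes, all detected in every group, were 2567 CPM (UMIs per 1000000 UMIs of a group) in the PVALB group, 1514 CPM in TRPM8 and 373 to 565 CPM in the others. In library 1 that sum ran from 1747 to 3200 CPM over its groups, and in the PVALB nuclei of library 4 it was 4728 CPM. The part of glial RNA in any difference below was not tested.

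Levels are UMIs of a gene summed over the nuclei of a group, in CPM, with no comparison of levels between genes. A library value is given where at least 10 nuclei of the group came from that library: 4 libraries for TRPM8, IL31RA, GFRA2, KIT and NTRK3, 5 for ADCYAP1, 3 for PVALB and 1 for NTRK2. Ratios carry an exact 95% interval that covers counting error only. A gene is called higher or lower when its CPM differs at least 2-fold and the interval leaves out 1, where both sides together held 50 UMIs or more.

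Most of the 53 members differed between the marker groups. The highest group exceeded the lowest at least 4-fold for 33 of 53 members (62.3%), against 50.8% of 13304 genes, and the median span was 4.83-fold for the members and 4.06-fold for all genes. NTRK3 was the highest group for 13 members, KIT for 7, IL31RA for 3 and each of the other groups for 6. Over all genes NTRK3 was highest for 24.9%, close to its 24.5% of members, and PVALB for 25.2%, against 11.3% of members. KIT was highest for 11.09% of all genes and 13.21% of members, and IL31RA for 7.802% and 5.66%. TRPM8, GFRA2, ADCYAP1 and NTRK2, each with 11.3% of members, were highest for 6.547%, 7.667%, 7.201% and 9.644% of all genes. The PVALB group was lowest for 19 members. No share over all genes was computed for that count, so it is not read as a result about the members. The flattest members were PRKACA, a catalytic subunit of PKA, whose highest group was 1.37-fold its lowest (interval 0.99 to 1.90), the PKA regulatory subunit PRKAR2A at 1.65-fold, the atypical PKC isoform PRKCI at 1.69-fold, the soluble guanylyl cyclase subunit GUCY1A2 at 1.72-fold and the calcium-dependent phosphodiesterase PDE1A at 1.83-fold.

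**Figure D1:**
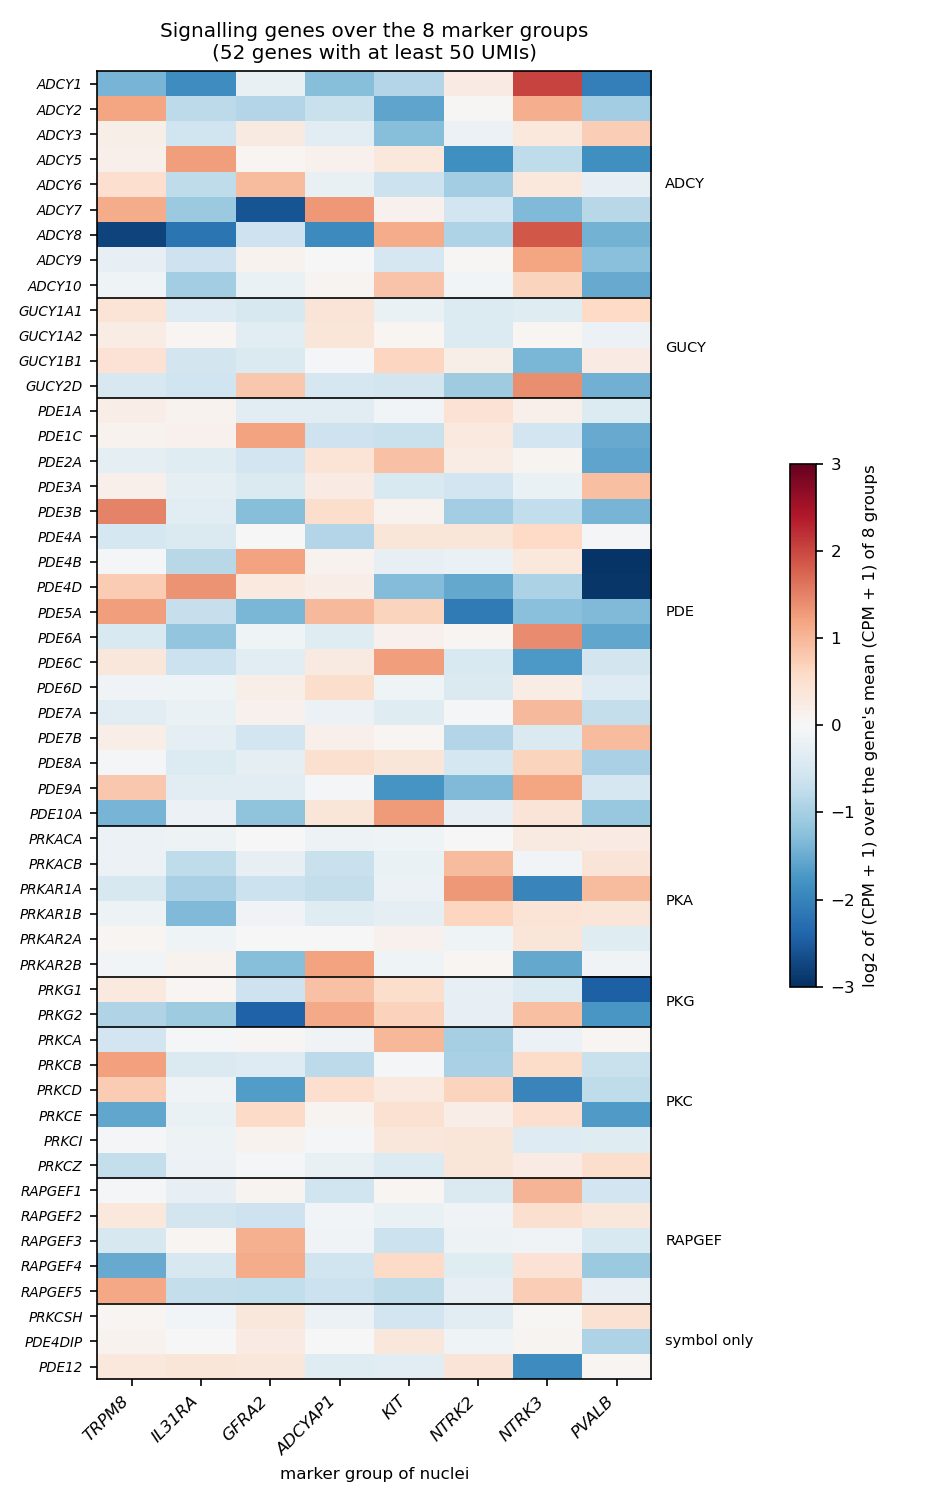
Levels of members with at least 50 UMIs (rows, by family) in the 8 marker groups (columns). Each cell is coloured by the log2 ratio of CPM + 1 to the gene's mean CPM + 1 over the 8 groups. ADCY1 and ADCY8 stand out in the NTRK3 column, and the PVALB column is the lowest for PDE4D and PDE4B.

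Set against the nuclei of the other 7 groups, each group had members past 2-fold in both directions, some of them shared between groups. ADCY7 and PDE5A, for example, were called higher in both TRPM8 and ADCYAP1, and PRKAR1A in both NTRK2 and PVALB. The TRPM8 group had 6 members higher and 7 lower, where 2.52% and 4.85% of all genes were called. For IL31RA the counts were 3 higher and 10 lower (all genes 2.50% and 9.53%), and for GFRA2 7 higher and 7 lower (3.37% and 8.03%). The ADCYAP1 group had 5 higher and 3 lower (2.56% and 8.42%), and KIT had 6 higher and 4 lower (4.71% and 8.07%). NTRK2 had 2 higher and 6 lower (5.63% and 13.0%). In the NTRK3 group 10 were higher and 10 lower, with backgrounds of 13.3% and 18.3%. The PVALB group had 3 higher and 23 lower, with backgrounds of 17.5% and 23.8%. As shares of the 53 members, the counts lay above the background in both directions for TRPM8, IL31RA, GFRA2 and, by a small margin, NTRK3, and below it in both for NTRK2. For PVALB the 43.4% of members called lower stood against 23.8% of all genes, and the 5.66% called higher against 17.5%.

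Between the 2 sides, 8 of 53 members were called higher in the C-fibre groups (15.1%, against 6.25% of 13107 genes) and 4 lower (7.55%, against 9.31%). Among the higher ones were the phosphodiesterases PDE4D, PDE5A, PDE3B and PDE6C, the adenylyl cyclases ADCY5 and ADCY7 and the cyclic GMP-dependent kinase PRKG1. The lower ones were ADCY8, ADCY1, the rod phosphodiesterase subunit PDE6A and the PKA regulatory subunit PRKAR1A. The median log2 ratio of the members was -0.01 and that of all genes -0.07. In 9 of these 12 the ratio had the same sign in every library that gave one. Leaving out 1 library took some below 2-fold: PRKG1 without library 1 (log2 ratio 0.98), PDE6C without libraries 4, 5 and 6 (0.99, 0.74 and 0.96), PRKAR1A without libraries 5 and 6 (-0.92 and -0.94) and PDE6A without library 4 (-0.84). Without library 5 only ADCY8 and ADCY1 were called lower. With nuclei grouped one by one by their marker UMIs, the log2 ratios of PDE5A, PDE3B, PRKG1, PDE6C and PRKAR1A were 0.09, 0.41, 0.67, 0.94 and -0.57. Just below the 2-fold mark lay PRKAR2B at 1.98-fold and the PKC isoform PRKCD at 1.90-fold on the higher side, and PRKAR1B (1.84-fold), PDE4A (1.82-fold) and PRKACB (1.76-fold) on the lower side.

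**Figure D2:**
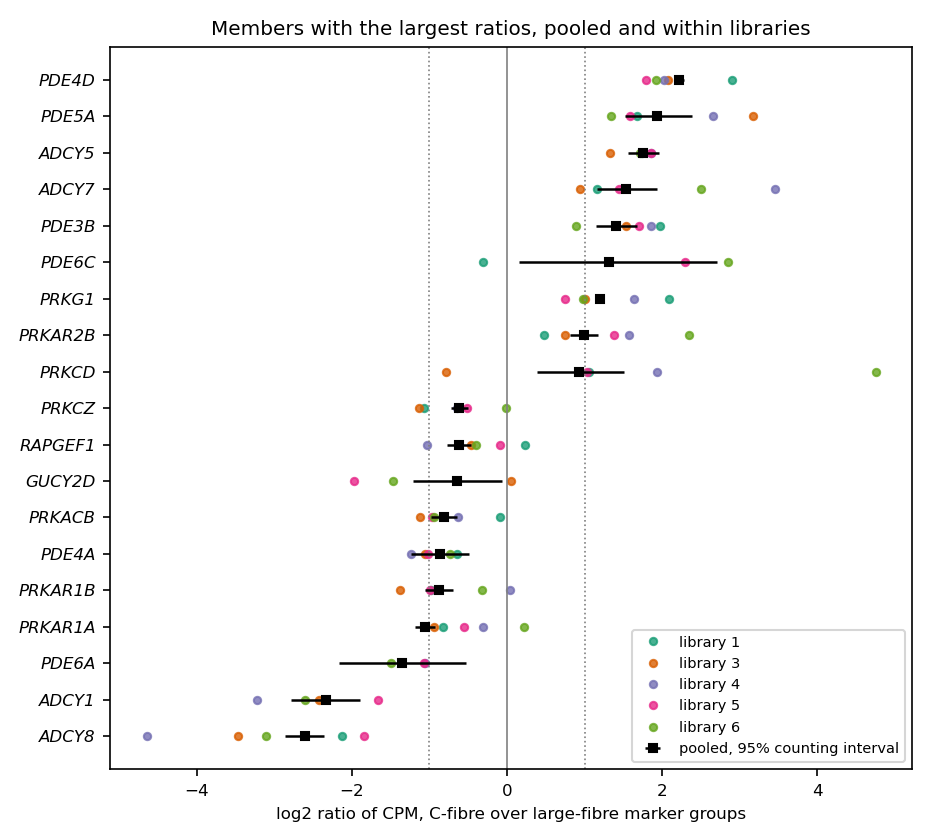
Log2 ratio of CPM, C-fibre over large-fibre marker groups, for members with the largest ratios in each direction. Black squares are pooled ratios with their 95% counting interval, coloured points the ratios within single libraries, and dotted lines mark 2-fold; every library point lies right of 0 for PDE4D and ADCY5 and left of 0 for ADCY8 and ADCY1.

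Among the adenylyl cyclases, ADCY8 and ADCY1, a pair stimulated by calcium and calmodulin, were the members most skewed to the large-fibre side. ADCY8 (chromosome 4, 9645398 to 9867065, RefSeq Sscrofa11.1) reached 198, 243, 146 and 170 CPM in libraries 3, 4, 5 and 6 of the NTRK3 group. In the KIT group it was at 57.9, 51.9, 207 and 166 CPM in libraries 1, 3, 5 and 6. No library value in any other group was above 59.7 CPM, which was IL31RA in library 5, while IL31RA stood at 0 in libraries 1 and 3. Pooled, ADCY8 was at 16.3 CPM in the C-fibre groups and 99.3 CPM in the large-fibre groups, 6.10-fold lower (interval 5.13 to 7.27), with library log2 ratios from -4.64 to -1.84. Its level in the NTRK3 group was 7.83-fold that of the other groups (6.78 to 9.04), and in the TRPM8 group 7.28-fold lower (4.31 to 13.4). The large-fibre skew of ADCY8 came from NTRK3: its pooled level was 27.4 CPM in the NTRK2 group and 19.2 CPM in PVALB.

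ADCY1 (chromosome 18, 50043572 to 50143549) was narrower still. In the NTRK3 group it was at 46.6, 90.3, 39.6 and 39.7 CPM in libraries 3, 4, 5 and 6, and the highest value elsewhere was 20.4 CPM, in the GFRA2 group of library 5. These values did not overlap, which held for 1.13% of all genes in that group and direction. Such descriptions, here and for other genes below, were added after the values had been seen. NTRK3 exceeded the other groups 9.53-fold (7.17 to 12.7). The C-fibre groups lay 5.05-fold below the large-fibre groups (3.73 to 6.90), at 5.74 against 29.0 CPM. That skew too came from NTRK3: pooled, ADCY1 was at 15.7 CPM in NTRK2, and PVALB was the lowest of the 8 groups at 2.39 CPM, from 4 UMIs. ADCY9, the cyclase least sensitive to the drug forskolin, was also called higher in NTRK3, 2.73-fold, at 206 to 545 CPM over 4 libraries. The highest of these was library 4, and without it the log2 ratio was 0.99, just below 2-fold; the mean of within-library ratios gave no call either. The value of 310 CPM in the ADCYAP1 group of library 4 lay within that range.

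ADCY5, best known as the main cyclase of the striatum and one inhibited by calcium, had the opposite distribution. The IL31RA group gave 198, 205, 420 and 389 CPM in libraries 1, 3, 5 and 6, and in each of those libraries this was above the other groups. The PVALB group was at 31.7, 39.8 and 40.5 CPM, the NTRK2 group at 35.4 CPM and NTRK3 at 58.3 to 90.3 CPM. On the C-fibre side ADCY5 was 3.38-fold higher (2.95 to 3.88), and in IL31RA 2.69-fold higher than in the other groups (2.47 to 2.92). Its levels moved with the library as well: in the ADCYAP1 group it was 78.0 and 80.9 CPM in libraries 1 and 3, and 162 to 263 CPM in libraries 4, 5 and 6.

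ADCY7 and ADCY2 were highest in other C-fibre groups, ADCYAP1 and TRPM8. For ADCY2 the large-fibre group NTRK3 came close, at 96.2 CPM against 101 CPM in TRPM8, pooled. ADCY2 was called higher in NTRK3 as well, but not with equal weight per nucleus or within-library ratios. ADCY7, an isoform enhanced by G protein beta-gamma subunits, was at 56.3 to 134 CPM over 5 libraries of the ADCYAP1 group and 38.4 to 81.4 CPM over 4 libraries of TRPM8, against 0 to 9.33 CPM in GFRA2. In GFRA2 it was 9.75-fold below the other groups (5.41 to 19.6). It was called higher in the C-fibre groups, 2.90-fold (2.23 to 3.82), although its lowest level was in a C-fibre group. ADCY2, another beta-gamma-stimulated isoform, was at 76.2, 119, 160 and 108 CPM in the TRPM8 group, 2.94-fold above the rest (2.49 to 3.46). NTRK3 reached 188 CPM of ADCY2 in library 4 and 38.8 to 56.4 CPM in its other 3 libraries, and 1 nucleus held 28.4% of that group's ADCY2 UMIs. ADCY2 gave no call between the sides (1.5-fold lower), since TRPM8 and NTRK3 are on opposite sides.

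Of the remaining cyclases, ADCY6, a calcium-inhibited isoform, was highest in the GFRA2 group at 54.3 CPM and ADCY3 in PVALB at 40.1 CPM. The bicarbonate-sensitive soluble cyclase ADCY10 was highest in KIT at 13.4 CPM and lowest in PVALB at 1.80 CPM, a 7.45-fold span (2.13 to 39.9) from 115 UMIs in all.

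**Figure D3:**
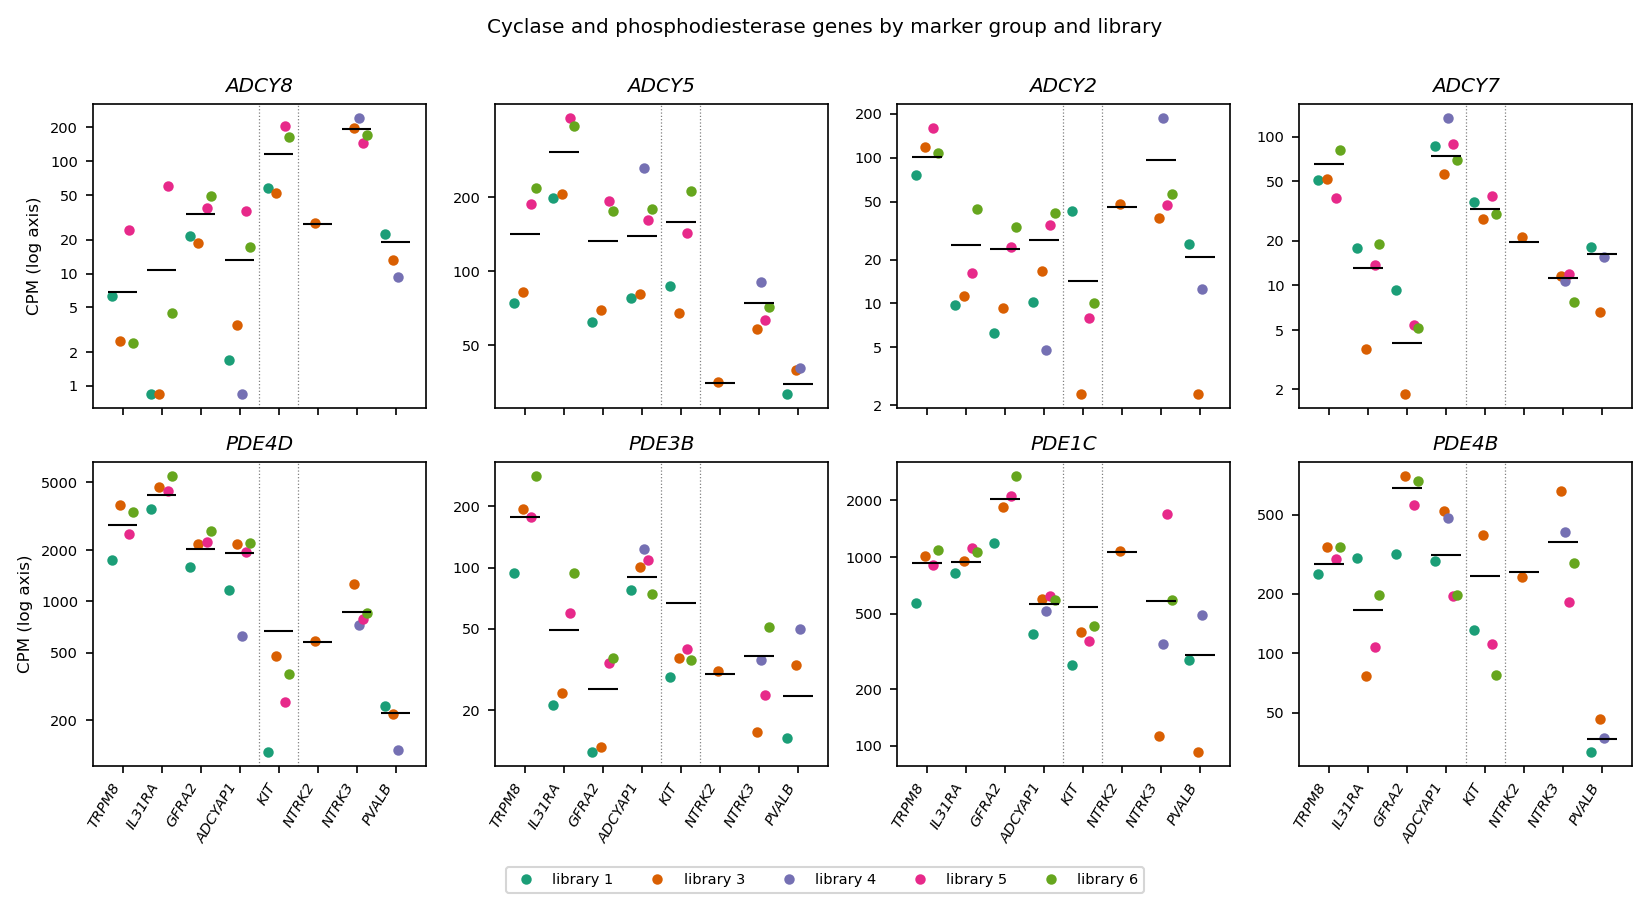
CPM (log axes) of 4 adenylyl cyclases and 4 phosphodiesterases in the 8 marker groups. Points are libraries with at least 10 nuclei of the group, values of 0 are drawn at 0.5 times the lowest value above 0, black bars are pooled levels and dotted lines set off the KIT group; the black bars of PDE4D and PDE4B are lowest in PVALB, and that of PDE3B is highest in TRPM8.

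Phosphodiesterases gave the member with the highest ratio on the C-fibre side. PDE4D, a cyclic AMP-specific enzyme (chromosome 16, 37897300 to 39406534), was at 3482, 4711, 4474 and 5467 CPM in libraries 1, 3, 5 and 6 of the IL31RA group. It reached 241, 219 and 134 CPM in libraries 1, 3 and 4 of the PVALB group. The GFRA2 group lay at 1599 to 2589 CPM, TRPM8 at 1748 to 3669 CPM and NTRK3 at 729 to 1258 CPM. Over the sides PDE4D was 4.66-fold higher in C-fibre groups (4.47 to 4.85; 2659 against 571 CPM), with library log2 ratios of 1.79 to 2.90. The values of 2 libraries of the ADCYAP1 group went across the sides. Library 4 (12 nuclei) was at 625.4 CPM, below all 4 values of NTRK3, and library 1 at 1163 CPM, below the 1258 CPM of NTRK3 in library 3.

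The KIT group, in neither side, was low in PDE4D at 130, 475, 255 and 372 CPM in libraries 1, 3, 5 and 6. Its pooled level of 673 CPM exceeded all 4, because 1 nucleus of library 4 held 412 of the group's 805 PDE4D UMIs (51.2%). That group's pooled TRPM8 level was 273 CPM, second to the TRPM8 group. The same group had 52.0% of its PDE10A, 62.3% of its PDE5A and 36.3% of its PRKCA UMIs in 1 nucleus. Its calls for PDE10A (2.86-fold higher) and PRKCA (2.20-fold higher) therefore rest in part on single nuclei. Within libraries PDE10A was 0.67 to 1.17 and PRKCA 0.48 to 0.82 higher on the log2 scale, and without library 4 the pooled log2 ratios were 0.91 and 0.87, below 2-fold.

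PDE3B was highest in the TRPM8 group, and PDE1C and PDE4B were both highest in GFRA2. PDE3B, a cyclic AMP enzyme inhibited by cyclic GMP, was at 93.7, 194, 178 and 282 CPM in the TRPM8 group, 3.42-fold above the other groups (3.01 to 3.87). It was 2.65-fold higher in the C-fibre groups as a whole (2.21 to 3.19), but GFRA2 lay at 12.4 to 36.1 CPM, among the lowest. PDE1C, activated by calcium and calmodulin, was at 1188, 1836, 2104 and 2699 CPM in GFRA2, 2.95-fold above the rest (2.86 to 3.05). The NTRK3 group reached 1686 CPM of PDE1C in library 5 and 113 CPM in library 3, the widest spread among libraries of 1 group for this gene.

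PDE4B, like PDE4D a cyclic AMP-specific enzyme, was highest in the GFRA2 group at 317, 785, 557 and 742 CPM, 2.74-fold above the other groups (2.59 to 2.90). In the PVALB group it was at 31.7, 46.4 and 37.4 CPM, below every library value of the other groups, of which the lowest was 76.5 CPM. Such a gap below held for 2.16% of all genes in the PVALB group. PVALB was 9.28-fold below the others for PDE4B (7.23 to 12.1) and 9.83-fold for PDE4D (8.87 to 10.9).

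PDE5A, the cyclic GMP-specific enzyme that sildenafil inhibits, was 3.83-fold higher on the C-fibre side (2.86 to 5.23; 43.4 against 11.3 CPM). It was at 41.3 to 98.1 CPM in TRPM8 and 49.2 to 83.5 CPM in ADCYAP1. Values of 3.73 to 32.3 CPM in IL31RA and 3.75 to 19.1 CPM in GFRA2 overlapped those of the large-fibre groups, 0 to 24.9 CPM. The photoreceptor enzymes were near the detection floor. PDE6C was called 2.48-fold higher from 46 against 7 UMIs (1.11 to 6.52), and PDE6A 2.55-fold lower from 28 against 27 UMIs (1.45 to 4.49). PDE6A was 4.82-fold higher in NTRK3 from 23 UMIs (2.73 to 8.32), and without library 4, 5 or 6 it had too few UMIs to be compared.

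In the PVALB group, PDE7B (2.14-fold) and PDE3A (2.02-fold) were called higher, and library 4 alone carried both calls. PDE7B was at 399 CPM in library 4 against 78.9 and 26.5 CPM in libraries 1 and 3, and PDE3A at 334 against 66 and 39.8 CPM. Of the 24 PVALB nuclei of library 4, 20 lie in 1 cluster whose satellite glia genes stood 2.26 above the rest of its library on the log2 scale. In library 3 both genes were lower in PVALB than in the other groups, by log2 ratios of -0.82 and -0.21. Without library 4 the pooled log2 ratios were 0.19 and 0.18, and without library 2 that of PDE3A was 0.98.

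Among PKA genes, the catalytic subunit PRKACA and the regulatory subunit PRKAR2A gave no call in any comparison. PRKACB, the other catalytic subunit, was highest in NTRK2 at 163 CPM, 2.39-fold above the others (1.97 to 2.87), and 1 library (164 CPM in library 3) is behind that group. PRKACB also reached 159 and 156 CPM in libraries 3 and 4 of PVALB, close to the NTRK2 value. With nuclei grouped one by one by their marker UMIs, the NTRK2 log2 ratio of PRKACB was 0.70, below 2-fold.

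PRKAR2B, the RII-beta regulatory subunit (chromosome 9, 106851044 to 106957519), was at 285, 222, 191, 188 and 243 CPM in libraries 1, 3, 4, 5 and 6 of the ADCYAP1 group. The highest of 24 values elsewhere was 147 CPM, in the IL31RA group of library 6. A group lying wholly above the others in this way was seen for 0.0902% of all genes in ADCYAP1. PRKAR2B was 3.03-fold above the other groups there (2.77 to 3.31). NTRK3 was lowest, at 19.4 to 39.6 CPM, 3.73-fold below the others (2.92 to 4.85).

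PRKAR1A, the widely expressed RI-alpha subunit (chromosome 12, 11662344 to 11681490), was called lower in the C-fibre groups, 2.08-fold (1.90 to 2.27), and its level followed the library. In libraries 5 and 6 it was at 13.6 to 44.1 CPM in every group with a value, and in libraries 1 and 3 at 97.0 to 389 CPM. Library 4 gave 18.4 CPM in NTRK3, 191 CPM in ADCYAP1 and 490 CPM in PVALB. Within libraries the log2 ratio was -0.83, -0.95, -0.31, -0.56 and 0.22 in libraries 1, 3, 4, 5 and 6, none of them past 2-fold. NTRK2 and PVALB nuclei came mostly from libraries 1, 3 and 4, so the pooled call and the library cannot be told apart. Inside library 3, NTRK2 was at 389 CPM, PVALB at 278 CPM and IL31RA at 97.0 CPM. NTRK3, also a large-fibre group, was at 109 CPM there, below GFRA2 at 234 CPM and TRPM8 at 216 CPM. Pooled, NTRK3 was the lowest of the 8 groups at 38.5 CPM, and PRKAR1A was called lower in it.

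PRKAR1B, the neuronal RI-beta subunit, was lowest in IL31RA at 17.8, 24.3, 36.7 and 39.0 CPM. In NTRK2, NTRK3 and PVALB its library values ran from 77.7 to 179 CPM. The TRPM8, GFRA2 and ADCYAP1 groups overlapped these, the last with 158 CPM in library 4.

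**Figure D4:**
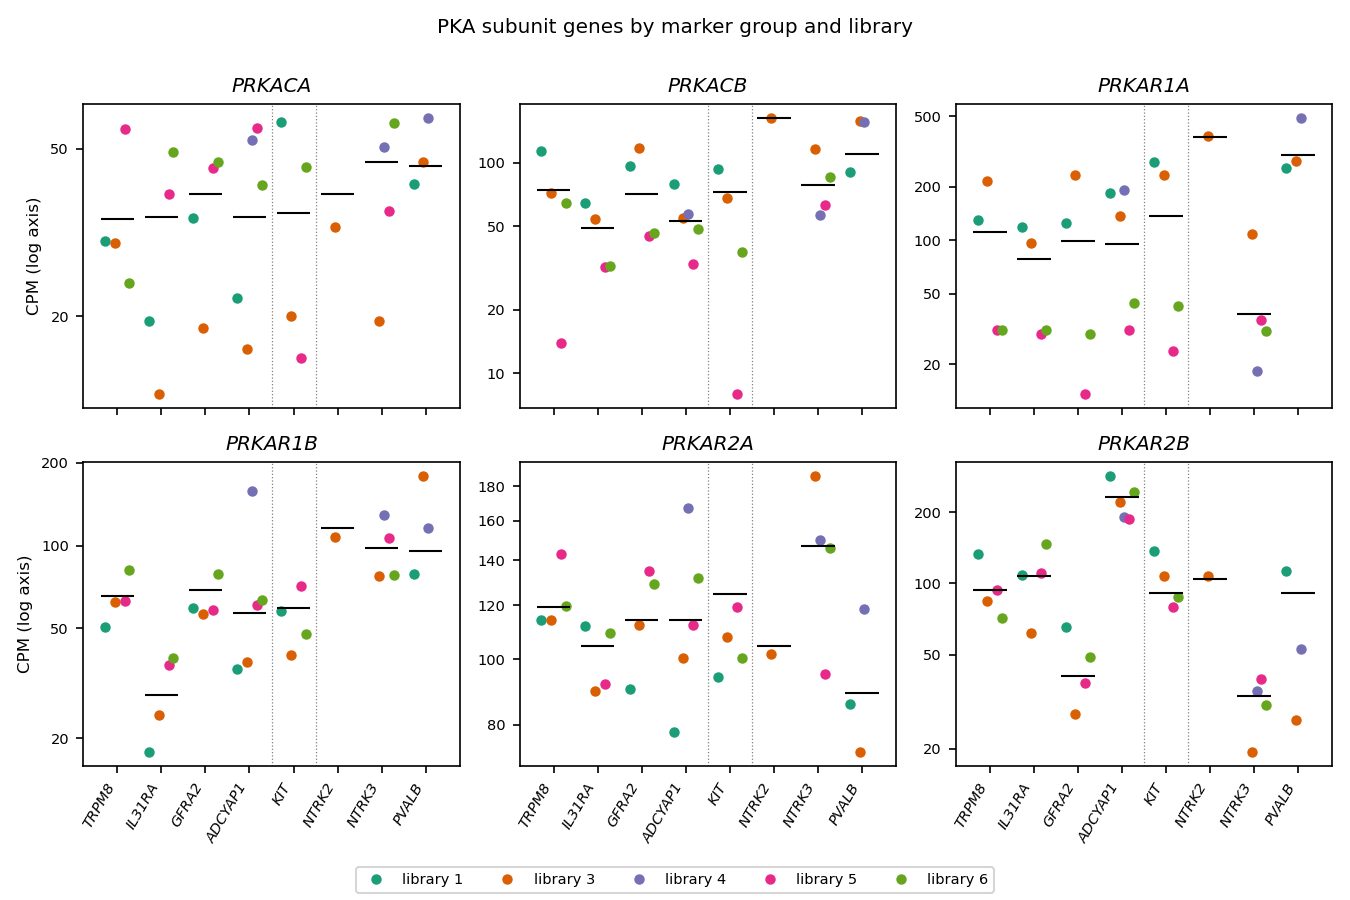
CPM (log axes) of the 6 PKA subunit genes in the 8 marker groups, drawn as points per library with at least 10 nuclei of the group, pooled levels as black bars and the KIT group between dotted lines. The 5 ADCYAP1 points of PRKAR2B lie at 188 CPM or more, above all others, and the points of libraries 5 and 6, with the NTRK3 point of library 4, lie at the bottom of the PRKAR1A panel.

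On the cyclic GMP side, PRKG1 had many UMIs and PRKG2 very few. PRKG1 (chromosome 14, 97558531 to 98793080) was at 4968, 7674, 4111, 3710 and 5104 CPM in libraries 1, 3, 4, 5 and 6 of ADCYAP1, and at 3604 to 4887 CPM in KIT. The PVALB group was at 685, 325 and 178 CPM, below every library value of the other groups, as held for 2.16% of all genes. The lowest of those other values was 1353 CPM in GFRA2. PVALB lay 6.52-fold below the others (6.11 to 6.96), ADCYAP1 2.12-fold above (2.08 to 2.15), and the C-fibre side 2.29-fold above the large-fibre side (2.23 to 2.35; 3830 against 1673 CPM). The ADCYAP1 call did not hold without library 1 or library 3 (log2 ratios 0.99 and 0.97), nor with equal weight per nucleus, within-library ratios, coarser clusters or thinned nuclei. The sides were not cleanly split: pooled, the C-fibre group GFRA2 lay below both the NTRK2 and NTRK3 groups, and only PVALB was lower. In library 3, NTRK3 was at 4051 CPM, above GFRA2 at 2745 CPM and IL31RA at 3280 CPM.

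PRKG2 was called higher in ADCYAP1, 3.43-fold (2.36 to 4.99), with 63 of its 121 UMIs there. It was also called higher in NTRK3, at 12.7 CPM pooled against 15.2 CPM in ADCYAP1. Library values overlapped, at 0 to 19.4 CPM in NTRK3 and 12.3 to 28.6 CPM in ADCYAP1. The NTRK3 call did not hold with equal weight per nucleus, within-library ratios or coarser clusters. In GFRA2 PRKG2 had 1 UMI, a ratio of 22.1-fold lower with an interval from 3.90 to 881. The soluble guanylyl cyclase subunits GUCY1A1 and GUCY1A2 gave no call in any group. Their partner GUCY1B1 was called lower in NTRK3, where it was at 3.06 to 11.7 CPM. GUCY2D, a membrane guanylyl cyclase known from photoreceptors, was 3.54-fold higher in NTRK3 (2.33 to 5.28) from 37 UMIs, at 3.88, 7.65, 51.5 and 23.1 CPM in libraries 3, 4, 5 and 6. GFRA2 had 3.75 to 19.1 CPM, within that spread. With nuclei grouped one by one, its NTRK3 log2 ratio was 0.82, below 2-fold.

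PKC isoforms had different leading groups. PRKCB was at 144, 341, 495 and 629 CPM in libraries 1, 3, 5 and 6 of TRPM8, highest of all groups in each of them, 2.99-fold above the others pooled (2.73 to 3.27). PRKCE, an isoform that does not need calcium and is known from nociceptor sensitisation, was low there instead, with only PVALB lower (351 CPM pooled). TRPM8 had 444, 191, 537 and 450 CPM of PRKCE, 3.23-fold below the others (3.01 to 3.47), and PVALB 271, 345 and 630 CPM. The other 6 groups ranged from 549 to 2322 CPM. Between the sides PRKCE differed by 1.04-fold, at 1121 and 1076 CPM (1.01 to 1.08).

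The pooled level of PRKCA was highest in KIT, with library values of 224 to 497 CPM that overlapped GFRA2 at 128 to 370 CPM. The highest single value was 964 CPM in the PVALB nuclei of library 4, the library with the glial cluster. PRKCD was at 3.35 CPM in GFRA2 and 22.3 CPM in TRPM8. The atypical PRKCZ was 1.53-fold lower in the C-fibre groups (1.42 to 1.65), its highest library value being 431 CPM in PVALB of library 3.

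Among RAP exchange factors, RAPGEF4 (EPAC2), which cyclic AMP activates directly, was at 491, 648, 767 and 913 CPM in libraries 1, 3, 5 and 6 of GFRA2, 2.82-fold above the others (2.67 to 2.98). TRPM8 had 173, 62.1, 119 and 122 CPM, 3.08-fold below (2.71 to 3.53). KIT at 411 to 708 CPM and NTRK3 at 388 to 479 CPM came next, KIT overlapping GFRA2, and the ratio between the sides was 1.06 (0.99 to 1.13). RAPGEF5, a RAP exchange factor that does not bind cyclic AMP, was highest in TRPM8 at 219, 502, 412 and 471 CPM, 2.84-fold above the others (2.62 to 3.07). NTRK3 reached 245 to 340 CPM of RAPGEF5, and PVALB 359 CPM in library 4. RAPGEF3 (EPAC1) was higher in GFRA2 from 28 UMIs, 2.76-fold (1.69 to 4.43), with values from 0 in library 1 to 19.1 CPM in library 5. RAPGEF1, whose exchange activity is controlled by tyrosine kinases, was called higher in NTRK3, 2.45-fold (2.18 to 2.75), at 117, 346, 103 and 131 CPM in libraries 3, 4, 5 and 6. Library 4 carried that call: without it the log2 ratio was 0.65, the mean of within-library ratios, thinned nuclei and library 3 alone gave no call, and in library 5 TRPM8 and KIT lay above NTRK3, at 136 and 135 CPM.

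**Figure D5:**
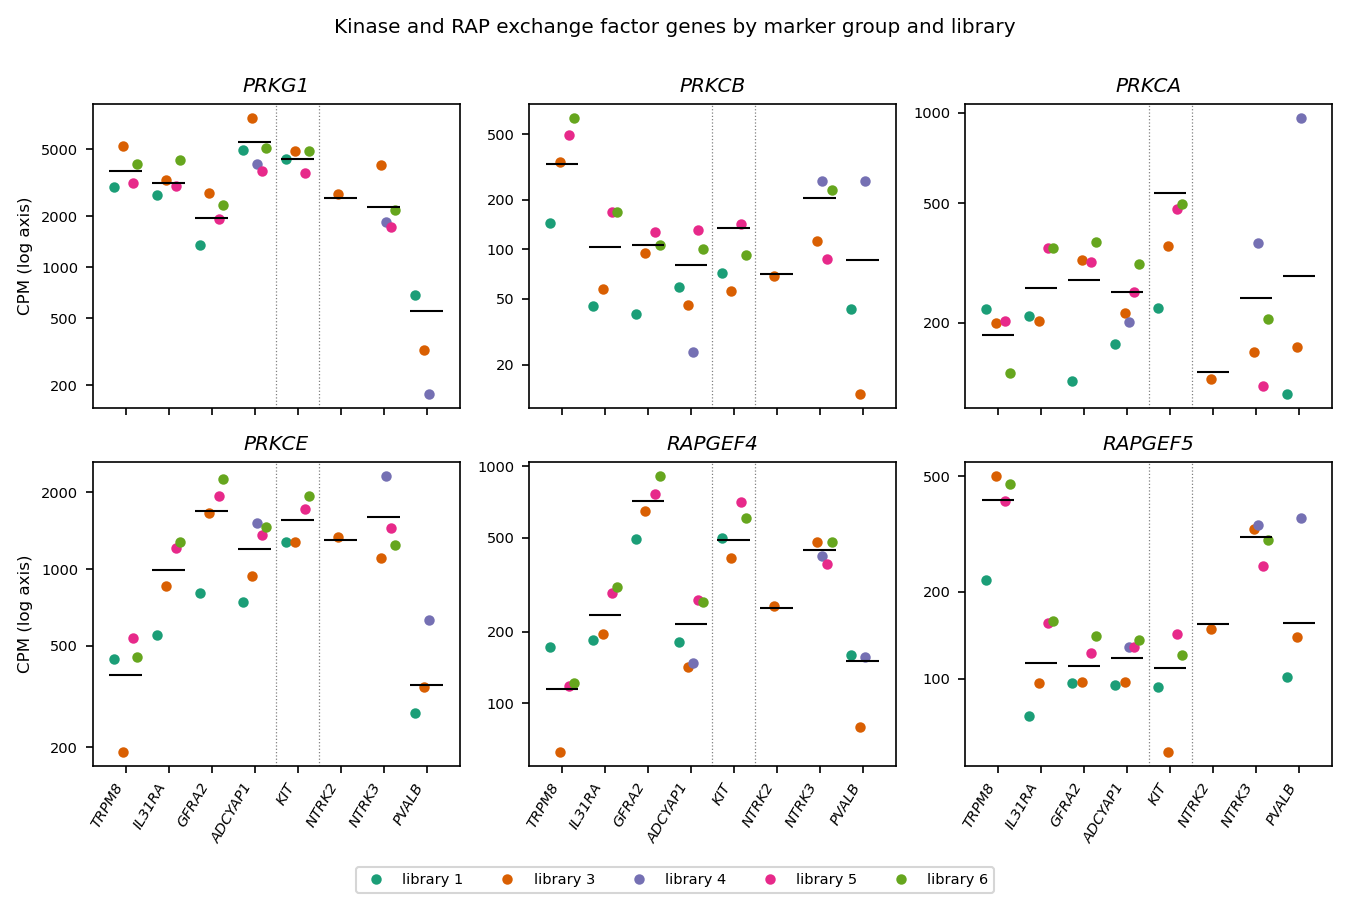
CPM (log axes) of PRKG1, 3 PKC isoforms and 2 RAP exchange factors in the 8 marker groups, with points for libraries with at least 10 nuclei of the group and black bars for pooled levels. PRKG1 is lowest in all 3 PVALB points, PRKCB and RAPGEF5 are high and PRKCE and RAPGEF4 low in TRPM8, and the PVALB point of library 4 stands above the other 2 in PRKCB, PRKCA and RAPGEF5.

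Of the 3 genes with a member's symbol only, PDE4DIP was called lower in PVALB, 2.04-fold (1.81 to 2.30). Its 3 library values there, 133 to 174 CPM, lay below all others, as held for 2.16% of all genes. Without library 4, 5 or 6 its log2 ratio was -0.96, -0.98 or -0.93, just under 2-fold, and equal weight per nucleus and each other way of grouping the nuclei but finer clusters also ended the call. PRKCSH gave no call. PDE12 was called lower in NTRK3 from 6 UMIs, 4.93-fold (2.23 to 13.6).

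With library 3 taken alone, a view added after the values had been seen, 40 members could be compared between the sides. PDE4D, PDE5A, ADCY5, PDE3B and PRKG1 were called higher (5 of 40, with 5.01% of 7870 genes called). ADCY8, PRKAR1B, PDE4A, PRKACB and PRKCZ were called lower (5 of 40, with 12.8% of genes called). PRKAR1A was not called there. Libraries of 1 group differed by a median of 1.68-fold in NTRK3 to 2.47-fold in GFRA2 over the members with enough UMIs. These medians took only libraries with at least 20 nuclei of the group and members with no value of 0. Library 4 of NTRK3 (16 nuclei), with that group's highest ADCY9, ADCY2 and RAPGEF1 values, was therefore left out.

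A list of 64 other genes of these pathways was compared the same way, and 55 had at least 50 UMIs. In the C-fibre groups 9 were called higher (16.4%, against 6.25% of all genes) and 3 lower (5.455%, against 9.31%), with a median log2 ratio of 0.28 against -0.07 for all genes. Diacylglycerol kinases, which remove the activator of PKC, made up 4 of the 9: DGKK was 10.0-fold higher (6.66 to 15.7), DGKH 6.24-fold (5.93 to 6.58) and DGKA 3.79-fold (3.21 to 4.51), with DGKI at 2.37-fold. Of the 10 kinases of this family that were tested, the other 6 were not called, and 4 of them had ratios on the lower side, down to a log2 ratio of -0.72 for DGKG. NOS1, the neuronal enzyme that makes nitric oxide and so drives soluble guanylyl cyclase, was 6.30-fold higher (4.97 to 8.09), with a library log2 ratio from -0.15 in library 4 to 3.86 in library 6. Lower were PKIB, an inhibitor of PKA, at 3.18-fold (2.52 to 4.02), the PKA anchor AKAP5 at 2.17-fold (1.62 to 2.91) and the cyclic nucleotide exporter ABCC5 at 2.07-fold (1.76 to 2.43), all 3 lower in each of 5 libraries. The cyclic nucleotide-gated pacemaker channel HCN2 followed at 1.78-fold lower (1.54 to 2.07).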

How the data were processed

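The authors deposited 1 table of raw UMI counts, genes by nuclei, not normalized. Per the submitters' processing notes, Cell Ranger 6.0.1, Seurat and the build Sscrofa11.1 were used, with no step assigned to them. How nuclei were filtered was not stated there. Each nucleus held 501 UMIs or more. Barcode endings gave 6 libraries that share 0 barcodes and could not be tied to the 5 pigs. Nuclei are not replicates, so no p-value was computed, and the intervals (Poisson for levels, conditional binomial for ratios) do not cover differences between animals. For a count of 0, up to 3 counts are allowed.

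In scanpy 1.11.5 each nucleus was scaled to 10000 counts and log-transformed. Of the 2000 most variable genes, 1991 remained without members and pathway genes; 30 principal components, 15 neighbours and Leiden clustering at resolution 1 gave 22 clusters, libraries not integrated. A cluster joined the marker with the highest log2 ratio (10 CPM added) against its own library, at least 1; no cluster stayed ungrouped. One cluster of 34 KIT nuclei had KIT and NTRK2 tied at 2.27, and 69 NTRK2 nuclei had a lead of 1.23. A ratio within a library was computed from 10 nuclei on each side and 10 UMIs upward, after adding 0.5 counts. Scrublet called 1 doublet (0.0457%), below the 0.5% at which calls would be used, and none was removed. Ratios and intervals were tested on counts simulated with counting error only, without nuclei or libraries. That test cannot tell how the intervals fare with the differences between nuclei and between libraries seen here.

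Members and lists were chosen with earlier results of these data known. Named were the 10 largest ratios in each direction between the sides, the 4 highest and 3 lowest members per group whose interval excluded 1, the 5 flattest members, the 4 highest and 4 lowest pathway genes, and others to complete a family. The assembly of the coordinates is Sscrofa11.1 (RefSeq), which placed 54 of 57 members. One member is counted but its values are not reported here. Antisense or overlapping genes could not be told apart.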

Additional observations from a re-analysis of the deposited data

Results flagged for a closer look

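Within-library ratios between the C-fibre and large-fibre groups were checked for a single library standing apart, for the 10 called members with a ratio in at least 4 libraries. ADCY5 and PDE4D had one. For ADCY5, library 3 gave a log2 ratio of 1.325, the nearest of the other 4 libraries being 1.718, a gap of 0.733 of the whole range against a critical value of 0.71. For PDE4D, library 1 gave 2.902, the nearest other library being 2.078, a gap of 0.739 of the range. Both genes were higher in the C-fibre groups in all 5 libraries. Chance alone marks about 1 in 20 such sets.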

How the results depend on the processing

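Of 60 values of a named member in a comparison, 50 kept their direction under every setting that gave a new ratio (17 to 19 of them). The settings were 20 planned ones and 2 added after the values had been seen (library 3 alone; clusters with a weak lead or glial genes left out). Of 240 counts, 212 were within 1.5 times the main one. A fold of 1.5 for a call gave 13 members higher and 12 lower in the C-fibre groups, and 20 for IL31RA, 22 for GFRA2, 20 for ADCYAP1, 16 for KIT and 16 for NTRK2. At least 200 UMIs gave 2 lower, and without library 5 also 2. Leiden resolution 0.5 gave 6 for IL31RA, and 1.5 gave 8 for IL31RA and 13 for NTRK2. Clustering each library alone gave 4 for KIT and 14 for NTRK2, and grouping nuclei one by one 17 for ADCYAP1 and 4 for NTRK2. Thinning to 1000 UMIs gave 2 lower, 6 for TRPM8, 8 for GFRA2, 4 for KIT, 5 for NTRK2, 5 for NTRK3 and 16 for PVALB, fewer UMIs being tested. Library 3 alone gave 5 higher, 9 for GFRA2, 6 for KIT, 12 for NTRK3 and 15 for PVALB, with fewer nuclei. Leaving out each library in turn gave 6 to 10 higher and 2 to 5 lower, 11 to 15 for TRPM8, 10 to 16 for IL31RA, 12 to 16 for GFRA2, 7 to 11 for ADCYAP1, 8 to 10 for KIT, 7 to 12 for NTRK2, 16 to 21 for NTRK3, 23 to 26 for PVALB and 30 to 34 members with a 4-fold span.

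The log2 ratio changed sign 15 times, and the cause was not tested. Equal weight per nucleus gave 0.25 for PDE6C and 0.0175 for PRKCD in NTRK3. Grouping nuclei one by one gave 1.08 for PDE5A in NTRK2, and leaving out each library in turn gave -2.60 to 0.50 for it, the latter without library 3, which holds most NTRK2 nuclei. Thinning gave -0.27 for PDE6C between the sides, 0.30 for PRKG2 in GFRA2, 1.71 for PDE9A in KIT, and 0.26 for PDE6C and 0.84 for PDE12 in NTRK3. In library 3 alone the ratio was 0.94 for PDE6A in IL31RA, 0.90 for PDE9A in KIT, 0.53 for PDE6C and 0.0106 for PRKCD in NTRK3, and -0.82 for PDE7B and -0.21 for PDE3A in PVALB. The span count has no value for a fold of 1.5 or for means of within-library ratios. No paired analysis was possible because the samples form 1 group and the table's columns carry no pig number.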

Other observations

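The 5 further rows that carry an Ensembl identifier and that a table of gene names places in these families were not counted as members since the rule reads symbols. Unlike the members, these rows were not kept out of the clustering, so they could have helped form the groups. PDE4C, a cyclic AMP-specific phosphodiesterase, was 12.4-fold higher in the C-fibre groups (9.73 to 16.1; 186 against 14.96 CPM), above the ratio of PDE4D, and higher in all 5 libraries, by 2.41 to 4.99 on the log2 scale. It was at 322 CPM in IL31RA, 236 in ADCYAP1 and 218 in KIT, and at 46.6 in TRPM8 and 75.1 in GFRA2. PDE8B, a cyclic AMP enzyme of high affinity, was 4.15-fold higher (3.72 to 4.65), with 441 CPM in TRPM8, 418 in IL31RA and 64.0 in GFRA2. PDE11A, which breaks down both cyclic nucleotides, was 2.42-fold higher (2.10 to 2.79). RAPGEF6, a RAP exchange factor, was 1.35-fold higher and the PKC isoform PRKCH 1.16-fold lower, neither called.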
